A study of Mus musculus with 12 samples.

Results

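Footpad skin of beta-catenin knockout mouse embryos was compared between the embryonic stages E17.5 and E16.5, 1 day apart and the last that the study sampled. The comparison used the 2 arrays whose labels read E17.5 knockout and the 2 whose labels read E16.5 knockout, 4 of the 12 arrays in all. All embryos were of the C57BL/6 strain, and the design text calls the knockout skin-specific; the Cre driver and the deleted part of the gene are not given in the sources used here. The other arrays held E15.5 knockout footpads and wild-type footpads of all 3 stages, again 2 per group. The labels name no treatment. The labels do not say whether the 2 samples of a group came from separate embryos or pools, so the p-values below reflect how far 2 such samples differ, and that may be technical. In RNA from whole footpad skin, fewer cells of a type and less RNA per cell cannot be told apart.

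Beta-catenin is the protein that carries the canonical Wnt signal to the nucleus, where it works with Tcf and Lef factors, and it is also a part of cell junctions. In skin the Wnt signal is needed for the earliest step of every appendage: placodes of hair, teeth, mammary and sweat glands are not laid down without it. Mouse footpads carry no hair and are the place where sweat glands form, first as buds of the epidermis in the late embryo and then as ducts growing into the dermis. In the same days the epidermis of the embryo stratifies and builds its outer, cornified layer.

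Each array was hybridised with footpad RNA labelled with Cy3 and with a common reference RNA labelled with Cy5, a pool from cultured mouse cell lines mixed with embryonic stem cell RNA. Values are log2 ratios of footpad over reference for 42006 probes of 60 bases, and a step is the value at E17.5 minus that at E16.5, so 1 on this scale is a doubling. The share of probes with Cy3 well above background was 72.4% and 70.8% on the E16.5 knockout arrays and 66.4% and 68.0% on the E17.5 ones. The ratios of the 2 replicates correlated, across probes, at 0.963 at E16.5 and 0.969 at E17.5, and those of arrays of different stages at 0.920 to 0.930. All arrays of a stage shared 1 slide and no slide held 2 stages. Slide and stage can therefore not be told apart, and for many probes the step of the reference channel is given beside that of the footpads. The files pair no probe with a gene symbol or a position, which leaves the level of the targeted transcript, and with it the genotype labels, unchecked here. Probes are therefore given by their sequence, and genes only where a probe matched the RefSeq sequence around a gene's start.

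The following probes of unnamed genes had the largest steps among those past the threshold whose arrays did not overlap between stages and whose signal was well above background on both arrays of the higher stage. They are shown 5′ to 3′ because the sequence is all that identifies their transcripts. Capitals mark AATAAA, the letters of the common polyadenylation signal, searched on the probe strand.

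Z00028697-1, higher at E17.5: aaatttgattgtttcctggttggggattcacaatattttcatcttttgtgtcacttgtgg

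Z00037703-1, higher at E17.5: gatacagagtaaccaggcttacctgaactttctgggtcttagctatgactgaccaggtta

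Z00026015-1, lower at E17.5: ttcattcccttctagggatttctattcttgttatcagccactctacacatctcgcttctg

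Z00071877-1, lower at E17.5: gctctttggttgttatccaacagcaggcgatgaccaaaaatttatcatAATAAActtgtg

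Probe Z00028697-1 read 3.20 and 2.40 on the knockout arrays at E16.5 and 10.07 and 10.06 at E17.5. The stages lay far apart, and both E15.5 knockout arrays, with a mean of 2.93 ± 0.07 (SD, n = 2), lay with the E16.5 arrays. The step was 7.26 ± 0.54 (SE), a 153-fold rise with an adjusted p of 0.00113 in limma's moderated test. In wild type the mean went from 6.20 ± 0.39 to 10.46 ± 0.08 (SD, n = 2 each), so that the wild type stood above the knockout at E16.5 and near it at E17.5. The difference of the knockout and wild-type steps, 3.00 ± 0.76 (SE), did not pass the threshold (adjusted p = 0.393). The reference channel of the knockout arrays also read this probe higher at E17.5, by 1.32 (adjusted p = 0.00307), against 8.67 in the footpad channel; the part of this in the result was not tested.

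Probe Z00037703-1 was below the reference at E16.5, at -1.75 and -2.36, and above it at E17.5, at 4.10 and 4.03. No array of one stage came near those of the other. The step was 6.12 ± 0.30 (SE), with an adjusted p of 0.00033. Its signal was well above background on 1 of the 2 knockout arrays at E16.5 and on none of the 2 at E15.5, so the size rests on dim values on one side, and it was 4.0 after normexp background correction and loess in place of the scanner's processed signals. The wild-type step was 7.0, but neither wild-type array was well above background at E16.5, so the sizes of the 2 steps cannot be ranked. Their difference did not pass the threshold (adjusted p = 0.851). On the knockout arrays the reference channel also read this probe higher at E17.5, by 0.52 (adjusted p = 0.0414 in limma). The part of this in the result was not tested.

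Probes Z00026015-1 and Z00071877-1 went the other way and were lost from view at E17.5. Z00026015-1 read 7.56 and 7.45 at E16.5, and Z00071877-1 read 6.85 and 7.01. On both E17.5 arrays each had a ratio of exactly 0, the value that the scanner software writes where neither channel has a signal above background. The steps of -7.51 and -6.93 passed the threshold (adjusted p = 0.00621 and 0.00775). The written 0 values carry no measured spread, so the spread in this test came from the other arrays of the fit. Only a bound can be given for the size of the steps. The bound sets the bright arrays against the lowest signal well above background, or the probe's own signal where that is higher, on Cy3 values scaled by loess and Aquantile, which dye bias can still affect. By it, Z00026015-1 was at least 22.6-fold lower at E17.5 and Z00071877-1 at least 4.78-fold lower. In wild type the E17.5 arrays read 1.29 and 4.70 for Z00026015-1 and 0 and 3.61 for Z00071877-1, after means of 7.73 ± 0.09 and 8.03 ± 0.23 (SD, n = 2) at E16.5. Without the second E17.5 knockout array, the adjusted p of Z00071877-1 was 0.0505. The reference channel fell by 2.01 for Z00026015-1 (adjusted p = 0.0594) and by 0.14 for Z00071877-1; whether this plays a part was not tested.

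**Figure D1:**
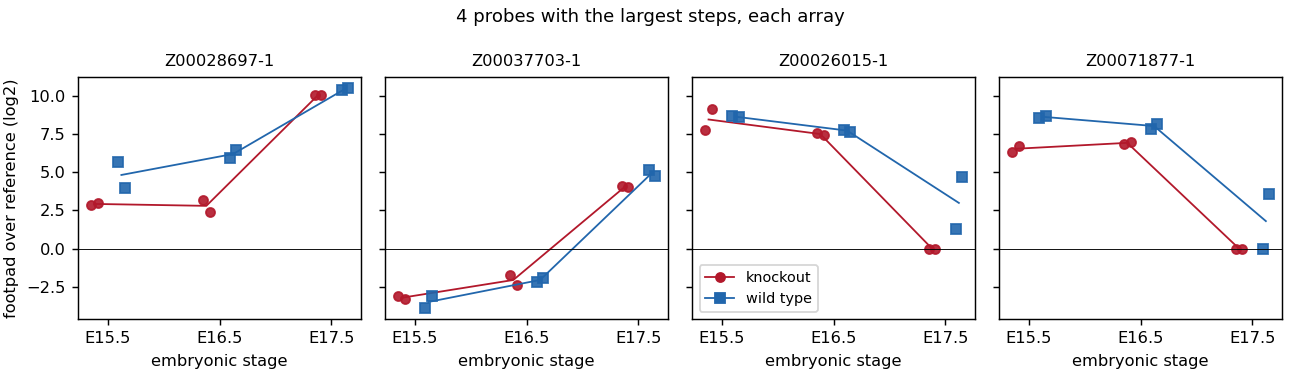
The vertical axis gives log2 of footpad over reference for 4 probes on each of the 12 arrays, by embryonic stage; circles are knockout and squares wild-type arrays, and lines join the group means. Z00028697-1 and Z00037703-1 are highest at E17.5 in both genotypes; Z00026015-1 and Z00071877-1 stand at 0 on both E17.5 knockout arrays.

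Over all probes the knockout step was wide. Of 42003 probes tested, 5485 passed an adjusted p of 0.05, which is 13.1%; 2802 (6.67%) were higher at E17.5 and 2683 (6.39%) were lower. The median change was 1.71-fold for those higher and 1.52-fold for those lower. At least 2-fold, 903 were higher and 615 lower; at least 4-fold, 164 and 129; and at least 8-fold, 40 and 44. Of the probes called, 4567 had a footpad signal well above background on all 4 arrays, or 16.8% of the 27233 such probes, and 559 on none of the 4.

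The split between higher and lower depends on the scaling. Agilent's ratios gave 2802 higher and 2683 lower. With normexp correction and loess the count was 4578 higher and 2392 lower, and with each array centred on the probes above background, an alternative chosen after seeing the data, it was 3560 and 1824. The median step over probes above background was -0.03 on Agilent's ratios, 0.04 with normexp and 0.05 with that centring. Single arrays also moved the count by more than 1.5 times: 3022 probes were called without the first E16.5 knockout array, 2974 without the second, 2939 without the first E17.5 array and 1720 without the second. In a fit of the 4 arrays alone, which leaves few degrees of freedom for each probe's spread, 1867 were called.

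Below, the higher and the lower probes are those called whose 2 stages did not overlap and whose signal was well above background on both arrays of the higher stage. There were 2410 higher and 2432 lower. Among probes above background on all 12 arrays, the SD of the knockout step was 0.46, against 0.20 and 0.19 for the difference between the replicates of E16.5 and of E17.5. Few changes were switches from no signal to signal: 61 of the probes called higher went from no knockout array above background to both, and 161 of those called lower went from both to none. Over all probes, called or not, 107 went from none to both and 1239 from both to none, beside the lower share above background on the E17.5 arrays; the part of that share in these counts was not tested.

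The probes higher at E17.5 had a median log2 ratio of -0.60 and -0.59 on the E16.5 knockout arrays and 0.18 and 0.21 on the E17.5 arrays. Before that, on the E15.5 knockout arrays, the median was -0.35 and -0.45, above that of E16.5. Of the 2410, the E15.5 mean lay below the E16.5 mean in 1011 (42.0%), between the stages in 734 and above the E17.5 mean in 663. Over all probes above background on the 4 arrays, 53.6% had an E15.5 mean below that of E16.5. The probes were chosen for an E16.5 mean below that of E17.5, which favours an E15.5 mean above E16.5, and E15.5 had a separate slide.

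The probes lower at E17.5 had a median of 0.82 and 0.84 at E16.5, 0.23 and 0.15 at E17.5, and 0.60 and 0.57 at E15.5. The E15.5 mean lay above the E16.5 mean in 798 of 2432 (32.8%), between the stages in 991 and below the E17.5 mean in 643. Over all probes above background on the 4 arrays, 53.6% had an E15.5 mean below that of E16.5. Choosing probes with an E16.5 mean above that of E17.5 favours an E15.5 mean below E16.5, and E15.5 had a separate slide. At E16.5, 21.5% stood at least 4-fold over the reference, against 11.5% of the higher probes and 12.1% of all probes above background. This is a description, since the rule for the lower probes asks for signal at E16.5.

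The probes that changed by at least 4-fold were 132 higher and 119 lower. Choosing them on the size of the knockout step fixes a wide gap between the stages, so their knockout medians at E16.5 and E17.5 are a description. The median of the 132 was 0.41 and 0.18 on the E16.5 knockout arrays and 3.57 and 3.55 on the E17.5 ones, while it was exactly 0 at E15.5, where 40.9% of them were above background. The median of the 119 was 2.44 and 2.50 at E16.5 and exactly 0 at E17.5, where 39.5% and 42.9% were above background. In wild type the 132 stood higher at E16.5, with medians of 1.48 and 1.52, and at E17.5 they read 3.40 and 3.27. The choice of the 132 favours low knockout values at E16.5, so the gap to wild type there is a description.

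**Figure D2:**
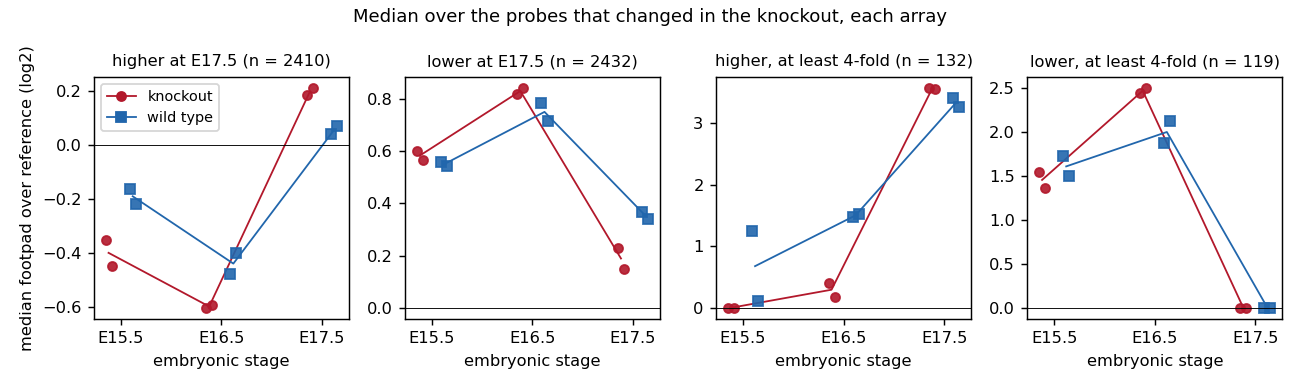
Each panel gives the median log2 ratio of footpad over reference over a group of probes on each of the 12 arrays, by stage; the vertical scales differ, circles are knockout and squares wild type, and lines join the means. The probes were chosen on the knockout step, in a fit in which all 12 arrays set each probe's spread; on the wild-type arrays the medians move the same way, from -0.48 and -0.40 to 0.04 and 0.07 in the first panel.

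The wild-type footpads, on the same slides and on arrays of their own, took much the same step. Of 42004 probes tested, 1461 were called there, or 3.48%, and 1157 of these (79.2%) were called in the knockout in the same direction, which is 21.1% of the knockout's calls; 14 were called in opposite directions. Of the 4842 higher and lower probes, 4730 had a wild-type step of the same sign. This count is a description, as the share over all probes is not given beside it. Across the probes above background on all 12 arrays, the steps of the 2 genotypes correlated at 0.833, a description over probes whose arrays share slides. Without the second E17.5 wild-type array 319 probes were called in wild type, without the first 450, and without the first E16.5 wild-type array 921.

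The knockout step had the larger median in these probes, and the count of single probes whose steps differed depended on the arrays used. The median step of the higher probes was 0.73 in the knockout and 0.45 in wild type, and of the lower probes -0.58 and -0.35. Since these probes were chosen on the knockout, their knockout step is favoured. Probes chosen in the same way on wild type gave a smaller gap in the same direction: the 548 higher ones had a median of 0.91 in the knockout and 0.73 in wild type, and the 593 lower ones -0.73 and -0.67. Over all probes above background the SD of the step was 0.46 in the knockout and 0.34 in wild type. In the test of the difference of the steps, 43 probes passed (0.102% of those tested; 2707 at an unadjusted p under 0.05), 16 with a higher knockout step and 27 with a lower one. That split turned with the scaling: it was 23 and 2 with normexp and loess, 19 and 8 with Cy3 alone, and 1 and 8 with centring over probes above background. Of the 43, 36 were above background on none of the 8 arrays of the stages and 5 on all 8. The count was 0 in limma after dim probes were left out, with 1408 at an unadjusted p under 0.05. It was 420 and 488 without the first and the second E16.5 knockout array, 177 and 84 without those of E17.5, 376 and 312 without the E16.5 wild-type arrays, and 68 and 34 without those of E17.5.

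The probes of that test which the naming rule admits are given with their sequences, again with AATAAA in capitals.

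Z00070322-1, knockout step above wild-type step: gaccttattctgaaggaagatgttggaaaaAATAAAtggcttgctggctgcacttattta

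Z00009737-1, knockout step above wild-type step: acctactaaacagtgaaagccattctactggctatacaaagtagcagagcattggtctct

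Z00003171-1, knockout step below wild-type step: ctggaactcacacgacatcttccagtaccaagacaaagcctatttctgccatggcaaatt

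Z00074544-1, knockout step below wild-type step: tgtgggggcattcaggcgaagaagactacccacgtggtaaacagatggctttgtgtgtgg

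Probe Z00009737-1 rose in both genotypes and more in the knockout. It read -0.33 and -0.31 at E16.5 and 1.37 and 1.43 at E17.5 in the knockout, and 0.03 and 0.17 and then 0.96 and 1.04 in wild type. The knockout thus began below the wild type and ended above it, with no overlap at either stage. The steps were 1.72 and 0.90, and their difference was 0.82 ± 0.08 (SE; adjusted p = 0.0342), with a reference step of 0.01. Without the second E17.5 knockout array or either E17.5 wild-type array the adjusted p was 0.0695 to 0.072.

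Probe Z00074544-1 fell in both and further in the knockout. Its knockout arrays read 0.14 and 0.22 at E16.5 and -1.21 and -1.25 at E17.5, its wild-type arrays -0.21 and -0.05 and then -0.65 and -0.72. Here the knockout began above the wild type and ended below it. The steps were -1.41 and -0.56, which differed by -0.85 ± 0.09 (SE; adjusted p = 0.0452). Without any 1 of the 4 E17.5 arrays of both genotypes the adjusted p was 0.0515 to 0.0995.

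Probe Z00003171-1 stood below the reference throughout. The knockout went from -1.92 and -2.10 to -3.93 and -4.07 and the wild type from -1.78 and -2.03 to -2.38 and -2.56. The knockout and wild-type arrays overlapped at E16.5 and stood apart at E17.5. Their steps differed by -1.42 ± 0.15 (SE; adjusted p = 0.0452); with normexp and loess that difference was -0.50 (adjusted p = 0.476). Without the second E17.5 knockout array or either E17.5 wild-type array the adjusted p was 0.075 to 0.0912.

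For probe Z00070322-1 the values that differ are those of the wild type at E17.5, where neither array was well above background, so the difference has no measured size. The knockout arrays read -1.16 and -1.26 at E16.5 and -1.61 and -1.36 at E17.5, a step of -0.27 that did not pass the threshold (adjusted p = 0.28). The wild-type arrays went from -1.28 and -1.45 to -3.60 and -3.51. The difference of 1.92 ± 0.21 (SE; adjusted p = 0.0456) was 0.28 with normexp and loess (adjusted p = 0.811), and the knockout signal was above background on 1 of 2 arrays at E17.5. Without the second E17.5 knockout array or either E17.5 wild-type array the adjusted p was 0.0864 to 0.109.

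Per the labels the same reference RNA was on every array, and its channel was tested as a check of the slides. On the knockout arrays 611 probes (1.45% of those tested; 7457 at an unadjusted p under 0.05) differed in Cy5 between the stages, 250 higher and 361 lower. With normexp the split was 376 and 299, and without the first E16.5 knockout array 379 and 320. Without the second E16.5 knockout array, which held 121 of the 216 outlier spots of the 12 arrays, 241 did. Of the 611, 207 were also called in the knockout step. They are 33.9% of the reference calls, against 13.1% of all probes called in the knockout step. They are 3.77% of the knockout calls, against 1.45% of all probes called in the reference channel. The part of the slides in this overlap was not tested.

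The channels of the higher and lower probes are given as a description, since choosing on the ratio favours a Cy3 step of its sign. Cy3 was quantile-normalized and Cy5 centred on each array's median, so the sizes of their steps can be compared only roughly. The median Cy3 step of the higher probes was 0.77 and their median Cy5 step -0.02; for the lower probes these were -0.67 and -0.10. The Cy3 step had the sign of the ratio in 4823 of 4842 probes, and the Cy5 step was larger in size than the Cy3 step in 99 (2.04%). Over all probes above background the SD of the Cy5 step was 0.27, and Cy3 and Cy5 steps correlated at 0.578 across probes on the same spots. The ratio's step correlated with the Cy5 step at 0.112.

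**Figure D3:**
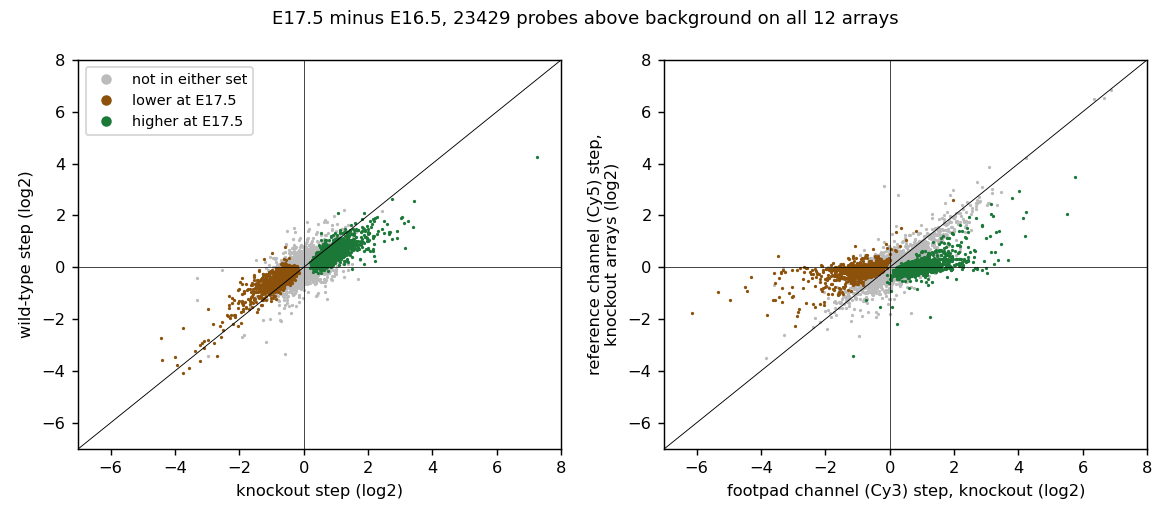
Each point is 1 of the 23429 probes above background on all 12 arrays with a step in both genotypes; the left panel sets the wild-type step (log2) against the knockout step, the right panel the reference channel's step against the footpad channel's step on the knockout arrays, with the line of equality. Green probes are higher and brown probes lower at E17.5 in the knockout; on the left they follow the line of equality on the side of the larger knockout step, and on the right they spread along the footpad axis, with the reference step near 0 for most.

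Probes that overlap in sequence may read the same transcript with different spots. This gives a check of the spots within each array and not of the slides. Among 502 pairs of probes that share at least 30 bases and were above background on all 4 arrays, 78 pairs had both probes called, in each case in the same direction; 51 had 1 called and 373 neither. The steps of a pair differed by a median of 0.05 and at most by 1.11, and correlated at 0.938 across pairs. For 11 pairs of identical sequence the median difference was 0.08.

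One falling and one rising pair are shown, chosen after their values were seen, as the called pairs with the largest steps; capitals mark the bases that both probes share.

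Falling pair, first probe: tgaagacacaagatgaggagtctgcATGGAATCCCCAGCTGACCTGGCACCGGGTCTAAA

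Falling pair, second probe: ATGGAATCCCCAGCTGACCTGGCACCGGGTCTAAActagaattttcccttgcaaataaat

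Rising pair, first probe: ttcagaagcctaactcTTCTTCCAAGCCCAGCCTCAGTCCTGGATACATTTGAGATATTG

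Rising pair, second probe: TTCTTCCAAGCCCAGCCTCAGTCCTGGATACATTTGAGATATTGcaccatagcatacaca

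The falling pair shares 35 bases. Its first probe read 6.83 and 6.69 at E16.5 and 3.11 and 3.28 at E17.5 in the knockout, and its second 7.07 and 7.07 and then 3.32 and 3.33. Both probes were thus far above the reference at both stages and lost most of their level between them. The steps were -3.56 ± 0.43 and -3.74 ± 0.19 (SE), with adjusted p of 0.00468 and 0.000397. On the E15.5 knockout arrays both probes were higher still, at 7.93 and 8.25 and at 8.04 and 8.55, and in wild type the steps were -3.89 and -4.09. The reference channel fell too, by 0.90 and 0.77.

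The rising pair shares 44 bases. It read 1.91 and 1.83 for the first probe and 1.59 and 1.61 for the second at E16.5, and 3.68 and 3.83 and 3.71 and 3.85 at E17.5. The steps of 1.89 ± 0.15 and 2.18 ± 0.11 (SE) passed the threshold with adjusted p of 0.0013 and 0.000407. The E15.5 knockout arrays read 2.56 and 2.50 for the first probe, between the 2 later stages. The wild-type steps were 1.17 and 1.19, and the reference channel moved by 0.68 for the first probe and 0.23 for the second.

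Genes could be named for few probes. Of the 42006 probes, 247 matched, exactly and over at least 30 bases on the same strand, the RefSeq window around the start of 1 gene on GRCm38.p6, which runs from 250 bases before the start to 50 after it; 13 matched windows of several genes. Copies elsewhere in the genome were not looked for. Some of the starts lie inside the full span of the gene, as at Ntng1, Lekr1, Tor1aip2, Gm9222 and S100a7a. Of the 247, 13 were called higher and 16 lower, 11.7% in all against 13.1% of all probes. Of these probes, 135 lie at the start, with a match that begins at most 30 bases before it and runs to 31 or more bases after it; 29 of them span it and the others begin at or after it. Of the 135, 57 were above background on all 4 arrays, 7 were called higher and 8 lower. The naming rule admits 12 of those 15; the others, at Gm39091, Olfr638 and Hspa1a, were above background on at most 1 of the 4 arrays. These calls rest on few arrays: of the 12, 9 lost theirs without the first E16.5 knockout array, 10 without the second, 10 without the first E17.5 array and 11 without the second. In the fit of the 4 arrays alone, 11 missed the threshold, with adjusted p of 0.0506 to 0.0975. With each array centred on the probes above background, Frg2f1, Gm3194, Leng1 and Gstp1 missed it, at 0.0549 to 0.0643. With the 8 arrays of both stages Pitpnm2, Frg2f1 and Gstp1 did, at 0.0515 to 0.0573; with Cy3 alone Arhgap27os3 and Frg2f1 did, at 1 and 0.0767; and Pitpnm2 did without the E15.5 knockout arrays, at 0.0595. No direction turned in the alternatives run for the 12 genes.

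Arl6, a small GTPase of the Arf family that brings the BBSome to primary cilia, read 1.64 and 1.27 at E16.5 and 2.39 and 2.37 at E17.5. The stages did not overlap, and the E15.5 mean of 1.38 ± 0.18 (SD, n = 2) lay with E16.5. The step was 0.92 ± 0.20 (SE; adjusted p = 0.03), a 1.89-fold rise, beside a wild-type step of 0.41 that did not pass (adjusted p = 0.324). Without either E17.5 array or the second E16.5 array the adjusted p was 0.109 to 0.13. The reference channel rose by 0.75 here. The probe matched 58 bases at chr16:59639290-59639347 on the minus strand, from 8 bases before the start to 50 after it.

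Pitpnm2, a membrane-associated phosphatidylinositol transfer protein, read 2.74 and 2.53 and then 3.58 and 3.58. Its step of 0.95 ± 0.24 (SE) had an adjusted p of 0.0447, and the reference channel rose by 0.64. The adjusted p was 0.112 to 0.175 without any 1 of the 4 arrays. The match lies at chr5:124249711-124249755 on the minus strand. In wild type the gene stood higher at E16.5, at 3.56 ± 0.45 (SD, n = 2), and its step of 0.63 did not pass.

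Pla2g2d, a secreted phospholipase A2, read 0.52 and 0.50 at E16.5 and 1.1 and 1.01 at E17.5, a small but even change. The step was 0.54 ± 0.09 (SE; adjusted p = 0.0139) with a reference step of -0.05, at chr4:138775738-138775784 on the plus strand. Without any 1 of the 4 arrays the adjusted p was 0.0558 to 0.0676. The E15.5 knockout arrays, at 0.92 ± 0.02 (SD, n = 2), stood near those of E17.5.

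The other rising probes matched long noncoding RNAs. Gm36608 (chr19:3708119-3708167, minus strand) went from 2.01 and 1.62 to 3.80 and 3.31, while the reference channel fell by 0.64 (adjusted p = 0.23 in limma). The step of Gm36608 was 1.74 ± 0.39 (SE), with an adjusted p of 0.0333, and it was 0.75 with normexp and loess. Its adjusted p was 0.0863 to 0.142 with any 1 of the 4 arrays left out. Arhgap27os3 (chr11:103344762-103344802, plus strand), a transcript named for lying opposite Arhgap27, went from 0.81 and 0.52 to 1.68 and 1.53. The reference channel fell by 0.92 there (adjusted p = 0.349 in limma), and the footpad channel, scaled in another way, moved by 0.04. The part of each channel in the result was not tested. The step of Arhgap27os3 was 0.94 ± 0.17 (SE), with an adjusted p of 0.0173. Its adjusted p was 0.0688 to 0.0818 without the second E16.5 array or either E17.5 array.

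Among the probes that fell, Ntng1, a netrin of the axon surface held by a lipid anchor, had the highest ratio to the reference. It read 6.05 and 5.98 at E16.5 and 5.15 and 5.13 at E17.5, after 7.45 ± 0.17 (SD, n = 2) at E15.5. The knockout values thus came down at both steps. The step was -0.88 ± 0.11 (SE; adjusted p = 0.00471) and the wild-type step -0.69 (adjusted p = 0.0256), at chr3:110143430-110143489 on the minus strand, where all 60 bases of the probe matched, from 17 bases before the start to 43 after it. The reference channel fell by 0.44 and the footpad channel by 1.27. The call was kept in all 15 alternatives run for it.

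Sec61b, a subunit of the channel that takes nascent proteins into the endoplasmic reticulum, read 0.79 and 0.89 at E16.5 and 0.26 and 0.26 at E17.5. It had been far higher on the E15.5 knockout arrays, at 2.89 ± 0.07 (SD, n = 2). The step was -0.58 ± 0.10 (SE; adjusted p = 0.0169), at chr4:47474670-47474710 on the plus strand, and the wild-type step was -0.48 (adjusted p = 0.0632). Without any 1 of the 4 knockout arrays the adjusted p was 0.0502 to 0.0855.

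Gstp1, a glutathione S-transferase that detoxifies electrophiles, stood below the reference, at -1.14 and -1.23 and then at -1.71 and -1.75. It was lower still at E15.5, at -2.38 ± 0.18 (SD, n = 2), so the values went up and then down. The step was -0.54 ± 0.13 (SE; adjusted p = 0.0429), at chr19:4037863-4037911 on the minus strand. With any 1 of the 4 arrays left out, the adjusted p was 0.114 to 0.177. Mice carry a close tandem copy of this gene, and reads of the copies by this probe cannot be told apart here.

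Leng1 (chr7:3665794-3665853, minus strand) went from 0.51 and 0.58 to 0.07 and -0.12. Its step of -0.57 ± 0.13 (SE; adjusted p = 0.031) was the same as the wild-type step of -0.57. Frg2f1 (chr4:119538720-119538762, minus strand) went from 1.21 and 1.42 to 0.38 and 0.54, with an adjusted p of 0.0474. Gm3194 (chr14:5460361-5460391, minus strand) went from -1.40 and -1.55 to -2.14 and -1.98, with an adjusted p of 0.0334, and with normexp and loess its adjusted p was 0.158. Without any 1 of the 4 arrays the adjusted p was 0.0639 to 0.16 for Leng1, 0.111 to 0.185 for Frg2f1 and 0.0809 to 0.144 for Gm3194. The last 2 names belong to gene families, whose other copies the probes may also read.

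Lekr1 (chr3:65666247-65666277, plus strand) was the 1 gene of the 12 whose wild-type step had the opposite sign. In the knockout it read 0.73 and 0.44 at E16.5 and -0.23 and -0.63 at E17.5; in wild type it read 0.20 and 0.22 and then 0.21 and 0.44. The knockout step of -1.02 ± 0.17 (SE) passed with an adjusted p of 0.0121, and the wild-type step was 0.12. The difference of -1.14 ± 0.24 (SE) did not pass over all probes (adjusted p = 0.257). At E17.5 no array of either genotype was above background, though both arrays of each were at E16.5. The size and sign of the wild-type step therefore rest on dim values, and no contrast of the genotypes can be read from them. The knockout fall is bounded at at least 1.16-fold, and with normexp and loess the knockout step was -0.18 (adjusted p = 0.151). Without the first E16.5 array the adjusted p was 0.0579, and without the second E17.5 array 0.0617.

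**Figure D4:**
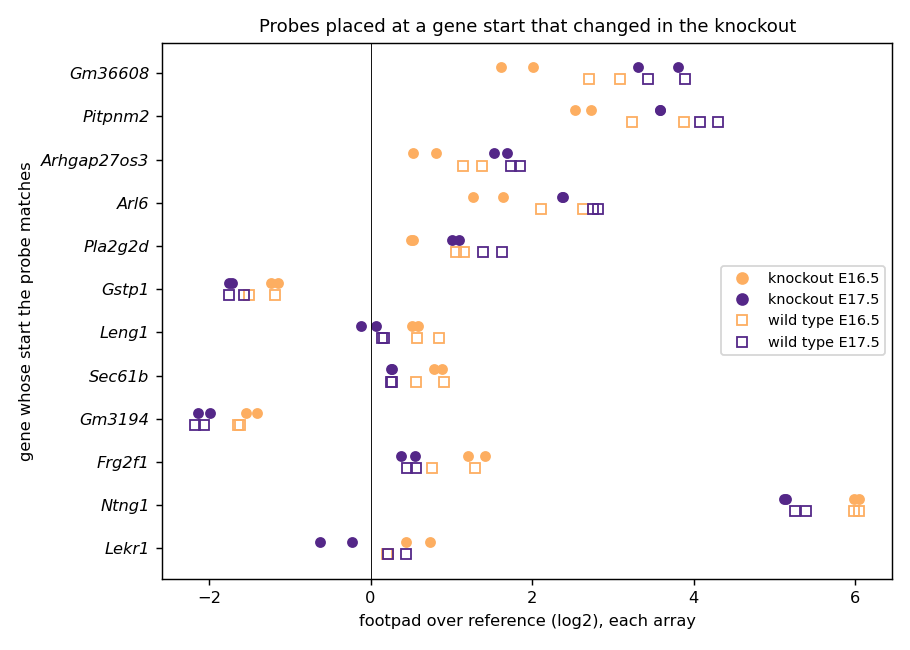
The horizontal axis gives log2 of footpad over reference for the probes at the start of 12 genes on each knockout array (filled circles) and wild-type array (open squares) of E16.5 (orange) and E17.5 (violet). The probes of the 5 genes at the top rise and those of the 7 below fall in the knockout. At Lekr1 the wild-type arrays of E16.5 and E17.5 lie together, but no E17.5 array of either genotype was above background there.

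The other 112 matched probes lie upstream of the start on which their window is set, wholly or in large part. They may read an earlier start of the gene or a neighbour on the same strand, and say less of the gene named. Of these, 6 were called higher and 8 lower, and all the called ones that were above background on all 4 arrays are named here. Higher were Tor1aip2 (0.94), Creld1 (0.62), Gm9222 (0.56) and Gm2427 (0.30), each value a log2 step. Lower were Wdr6 (-0.67), S100a7a (-0.59), Nedd8 (-0.59), Fxyd5 (-0.57), Pdia2 (-0.50), Cisd3 (-0.43) and Vars2 (-0.32). S100a7a belongs to the S100 proteins of the epidermal differentiation cluster. Its probe begins 55 bases before a start that lies inside the gene's full span, and its wild-type step was -0.54. At Fxyd5 the reference channel moved more than the ratio, by -1.03.

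Lists of 653 genes in all had been drawn up for Wnt, Eda and Shh signalling, sweat gland development, the layers of the epidermis and other cell types of skin. Only 5 of these genes have a matched probe, so no list can be described, nor the tissue label be checked against its markers. None of the 5 passed the test. Madcam1, an adhesion molecule listed with the Eda pathway, read 1.16 and 0.67 at E16.5 and 0.36 and 0.47 at E17.5 (adjusted p = 0.122). Ltb, the cytokine lymphotoxin beta of the same list, read 0.69 and 0.78 and then 0.51 and 0.40 at a probe upstream of its start, with no overlap of the stages (adjusted p = 0.0761).

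Aqp5, the water channel of secretory sweat gland cells, read 0.50 and 0.51 at E16.5 and -0.35 and -0.11 at E17.5 at a probe upstream of its start. The step of -0.73 ± 0.57 (SE) did not pass (adjusted p = 0.462). Acta2, the smooth muscle actin that also marks sweat gland myoepithelium, read 0.51 and 0.28 and then -0.42 and 0.35, with stages that overlap (adjusted p = 0.386). Retn, the adipocyte hormone resistin, was not above background on any of the 12 arrays.

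Base composition is described without a test. The median GC content was 41.7% for the higher probes and 45% for the lower ones, with 45% over all 27233 probes above background. The share called higher was 11.0% of probes with up to 35% GC, 12.3% of those with 35 to 40% and 2.81% of those with over 60%. The share called lower was 7.92% in the first of these bins, highest at 9.08% between 50 and 55% GC, and 5.53% over 60%. The median step went from 0.07 to -0.17 over the same bins, in wild type from 0.06 to -0.09, in the reference channel of the knockout arrays from -0.01 to -0.10, and with normexp and loess from 0.11 to -0.07. The part of base composition in single calls was not tested.

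**Figure D5:**
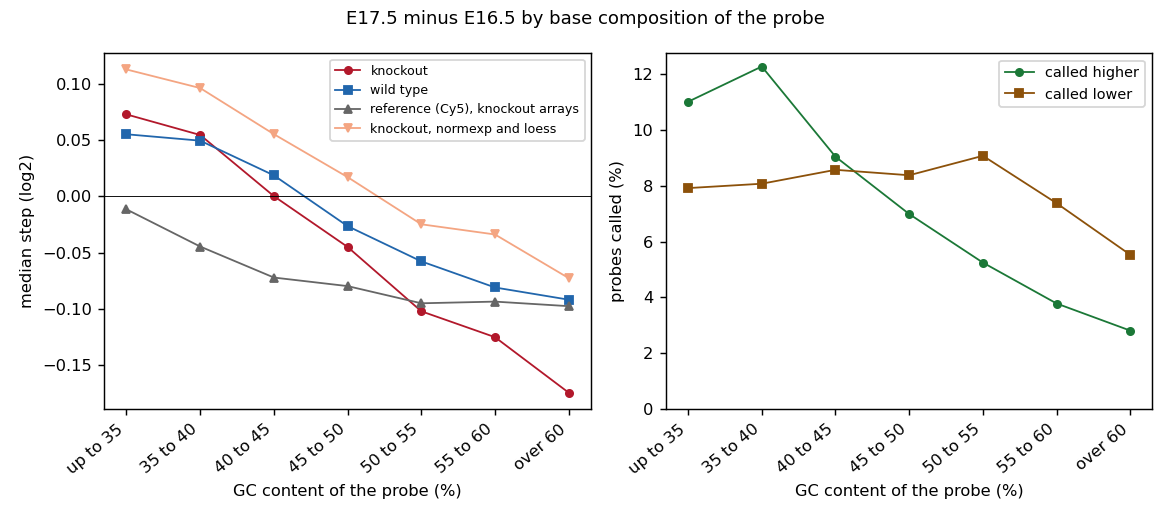
The left panel gives the median step (log2) of probes above background on all 4 knockout arrays in bins of the GC content of the probe (%), for the knockout, the wild type, the reference channel and the knockout with normexp and loess; the right panel gives the percentage called higher or lower. The lines on the left end lower than they begin, with the reference channel nearly level from 50 to 60%; on the right the share called higher is 11.0% in the first bin and 2.81% in the last, while the share called lower peaks at 9.08% between 50 and 55%.

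Motifs were counted in the probes themselves. AATAAA was present in 11.6% of the lower probes, 8.42% of the higher ones and 7.81% of all probes above background; its reverse complement, TTTATT, was in 3.70%, 3.44% and 3.11%. ATTTA, the core of AU-rich elements, was in 7.98%, 8.17% and 7.05%. These shares describe the letters of the probes and no site or cause.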

How the data were processed

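Footpad RNA (Cy3) of 12 samples was hybridised with a common Cy5 reference, with no dye swap, per the labels' protocols. The scans were turned into spot values by Agilent Feature Extraction, version 9.5.1.1 per the file headers. The deposited files hold the log10 ratio of Cy5 over Cy3 and the processed and mean intensity of each channel; each array has 43451 spots, 1417 of them controls. The authors' deposited series table, used as an alternative, is on a log10 scale and lists 25030 spots, chosen by a rule that the sources used here do not state.

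The log10 ratio was turned to log2 of footpad over reference, 216 outlier spots and the controls were left out, and spots of a probe were averaged; no loess or centring was added, and 3 probes could not be tested. limma 3.58.1 (R 4.3.3) fitted the 6 group means over 12 arrays, with 6 residual degrees of freedom (prior 0.82); p-values were adjusted over all probes by Benjamini-Hochberg, and a probe was called at 0.05. Cy5 was tested on log2 of its processed signal, centred on each array's median. Cy3 alone was log2 of its processed signal after quantile normalization, so the steps of the channels need not add up to that of the ratio. The script was tested on simulated data. Named probes were the 2 with the largest step or difference in each direction among those called, not overlapping and above background on both arrays of the higher stage (for the difference, of 1 knockout stage); named genes were up to 12 in each direction of those placed at a start. No array was saturated at a named probe, and the number of arrays limits the precision. Alternatives were another background correction and normalization, centring, filters, Cy3 alone, the authors' table, other sets of arrays, a replicate block and each array left out. Members, lists and rules were chosen with earlier results of these data known, and matching probes to gene starts was chosen after the files were seen. Planned naming from a gene column, transcripts or proteins was not used here.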

Additional observations from a re-analysis of the deposited data

Results flagged for a closer look

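The step from E16.5 to E17.5 differed between knockout and wild type, by the test of the difference itself, for 4 named probes. The knockout step minus the wild-type step was 1.92 for Z00070322-1 (adjusted p = 0.0456), whose wild-type E17.5 arrays were not well above background, 0.82 for Z00009737-1 (adjusted p = 0.0342), -1.42 for Z00003171-1 (adjusted p = 0.0452) and -0.85 for Z00074544-1 (adjusted p = 0.0452). All 4 lost significance when dim probes were left out, with 8 arrays and with a replicate block. Single outlying arrays were not looked for, since each group has only 2.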

How the results depend on the processing

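The knockout step gave 5485 calls with median centring, 5483 with outlier spots kept, 6970 with normexp and loess, 6784 with Cy3 alone, 6927 with the 8 arrays of both stages and 6649 without the E15.5 knockout arrays; it fell to 1867 with the 4 arrays alone and to 3436 at 1.5-fold or more, and leaving out 1 array gave 1720 to 3022. Of the main calls, 75.7% stayed called with normexp and loess, 77.2% with Cy3 alone, 95.2% of the 3720 tested in the authors' table, 23.1% with the 4 arrays alone, 27.3% without the second E17.5 knockout array and 41.4% to 45.8% without any other of the 4. In wild type, leaving out 1 array gave 319 to 1718. The difference of the steps, at 43, was 25 with normexp and loess, 27 with Cy3 alone, 24 with the authors' values, 3 with 8 arrays, 9 with centring over probes above background, 15 without the E15.5 knockout arrays, 34 to 488 with 1 array left out, and 0 with dim probes left out (1408 at an unadjusted p under 0.05) or with the block (3019) in limma; the cause was not tested. The reference channel gave 675 with normexp, 849 with quantile normalization and 241 to 710 with 1 array left out. Samples share replicate numbers, which the labels tie to no animal or day; differences between replicates correlated across stages at 0.104 in knockout and 0.333 in wild type. With the replicate block, 4929 probes were called in the knockout and 632 in wild type, and 4 of the 12 named genes (Gm36608, Arhgap27os3, Frg2f1 and Gm3194) missed the threshold, at adjusted p of 0.0526 to 0.0727. A lone array of a group was assumed to vary like the other groups. The counts of list genes and the mean over probes of a gene were not run, as the files name no genes. Dim probes and the number of arrays limit what can be seen.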
